A study of Danio rerio with 3 samples.

Results

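The 6 loci described here are windows of 800 kb on zebrafish chromosomes 3, 11, 12, 16, 19 and 23, taken as the hox cluster loci other than the one on chromosome 9. Every deposited peak whose summit lay in one of these windows was taken, and peaks that touched or overlapped within a list were merged into regions. This gave 174 of 17121 H3K27me3 regions, 331 of 45534 H3K27ac regions in replicate 1 and 412 of 60427 in replicate 2, or 917 of 123082 regions in all. The windows were chosen with the peak densities of several of these loci known, so the levels below are a description and carry no test. At the 12 window edges the region just inside had a median H3K27me3 density of 4.81 and the region just outside 3.40, with 5.59 and 2.83 in H3K27ac replicate 1 and 2.81 and 2.70 in replicate 2. The highest H3K27me3 density was 33.3 just inside an edge and 89.6 just outside, so not every window ends in sparse H3K27me3. Density is defined further on.

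All 3 libraries are CUT&RUN libraries from wild-type embryos, made from the posterior trunk at 16 hours post fertilisation. CUT&RUN is an assay in which a nuclease tethered to an antibody cuts out the DNA around the bound histone mark. One library used an antibody against H3K27me3, and 2 libraries used one against H3K27ac. Nothing in the labels tells if the pair of H3K27ac libraries came from separate embryos, so their spread may be technical, and H3K27me3 values have no replicate. Each library holds the chromatin of all cells of the tissue, so the share of cells that carry a mark and the amount of it per cell cannot be told apart.

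Hox genes encode homeodomain transcription factors that give cells their position along the body axis. They lie in clusters, and their order in a cluster follows the order in which they act from head to tail and from early to late. Genes of the low-numbered groups act first and towards the head, and those of the high-numbered groups act later and towards the tail. H3K27me3 is laid down by Polycomb repressive complex and keeps silent hox genes covered, while H3K27ac lies on active promoters and enhancers. In a trunk a cluster can therefore carry both marks, on different genes or in different cells. Teleost fish had a further genome duplication, and zebrafish keep most clusters as a pair of copies marked a and b.

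The gene table used here belongs to another assembly (GRCz12tu) than the peaks (danRer11), so it gives gene names and neighbours only, and no gene is placed at a peak. It lists protein-coding hox genes on each of the 6 chromosomes, 42 in total. Chromosome 19 carries 7 genes of hoxaa (hoxa1a to hoxa13a) next to evx1, a homeobox gene that borders hox clusters, and chromosome 16 carries 5 genes of hoxab (hoxa2b to hoxa13b). Chromosome 3 carries 11 genes of hoxba (hoxb1a to hoxb13a), next to eve1, also of the even-skipped family. Chromosome 12 carries 4 genes of hoxbb (hoxb1b to hoxb8b), the only one of these clusters whose highest listed group is 8 and not 13. Chromosome 23 carries 11 genes of hoxca (hoxc1a to hoxc13a) and chromosome 11 carries 4 genes of hoxcb (hoxc6b to hoxc13b). On each of the 6 chromosomes the table has the highest-numbered gene at the end with lower coordinates, and on chromosome 9 (hoxda) at the end with higher coordinates. Whether danRer11 runs the same way was not checked, and that the windows hold these clusters was checked by chromosome only. Below, the cluster names stand for the windows on their chromosomes.

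Density means the tags in the 10-kb window around a peak, worked out from each peak's deposited fold and p-value, divided by the genome-wide background of the library. Its lowest value is 1, places without a call have none, and values of different antibodies are on different scales. The genome-wide background was 0.370 tags for H3K27me3 and 0.806 and 1.10 tags for H3K27ac replicates 1 and 2, so the H3K27me3 library was the shallowest on this scale. The number of reads per library was not used here. Neighbouring regions share tags, and Poisson intervals cover counting error only. The exact intervals of shares treat regions as independent, which neighbours are not, so they are no test against the lists.

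The 6 loci were dense in both marks. The median H3K27me3 density of their regions was 16.4, against 5.94 over the whole list, and 105 of 174 regions had a density of at least 10, where the whole list had 37.4%. In H3K27ac the median was 6.15 in replicate 1 and 5.79 in replicate 2, against 3.13 and 2.71 over the lists. A density of at least 10 was reached by 92 of 331 H3K27ac regions in replicate 1, against 5.14% of the list, and by 118 of 412 in replicate 2, against 4.79%. Of the 100 densest H3K27ac regions of each list, the loci held 32 in replicate 1 and 42 in replicate 2, including the densest region of each list, but only 5 of the 100 densest H3K27me3 regions. The loci were chosen for such values, so nothing is read from these shares.

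**Figure D1:**
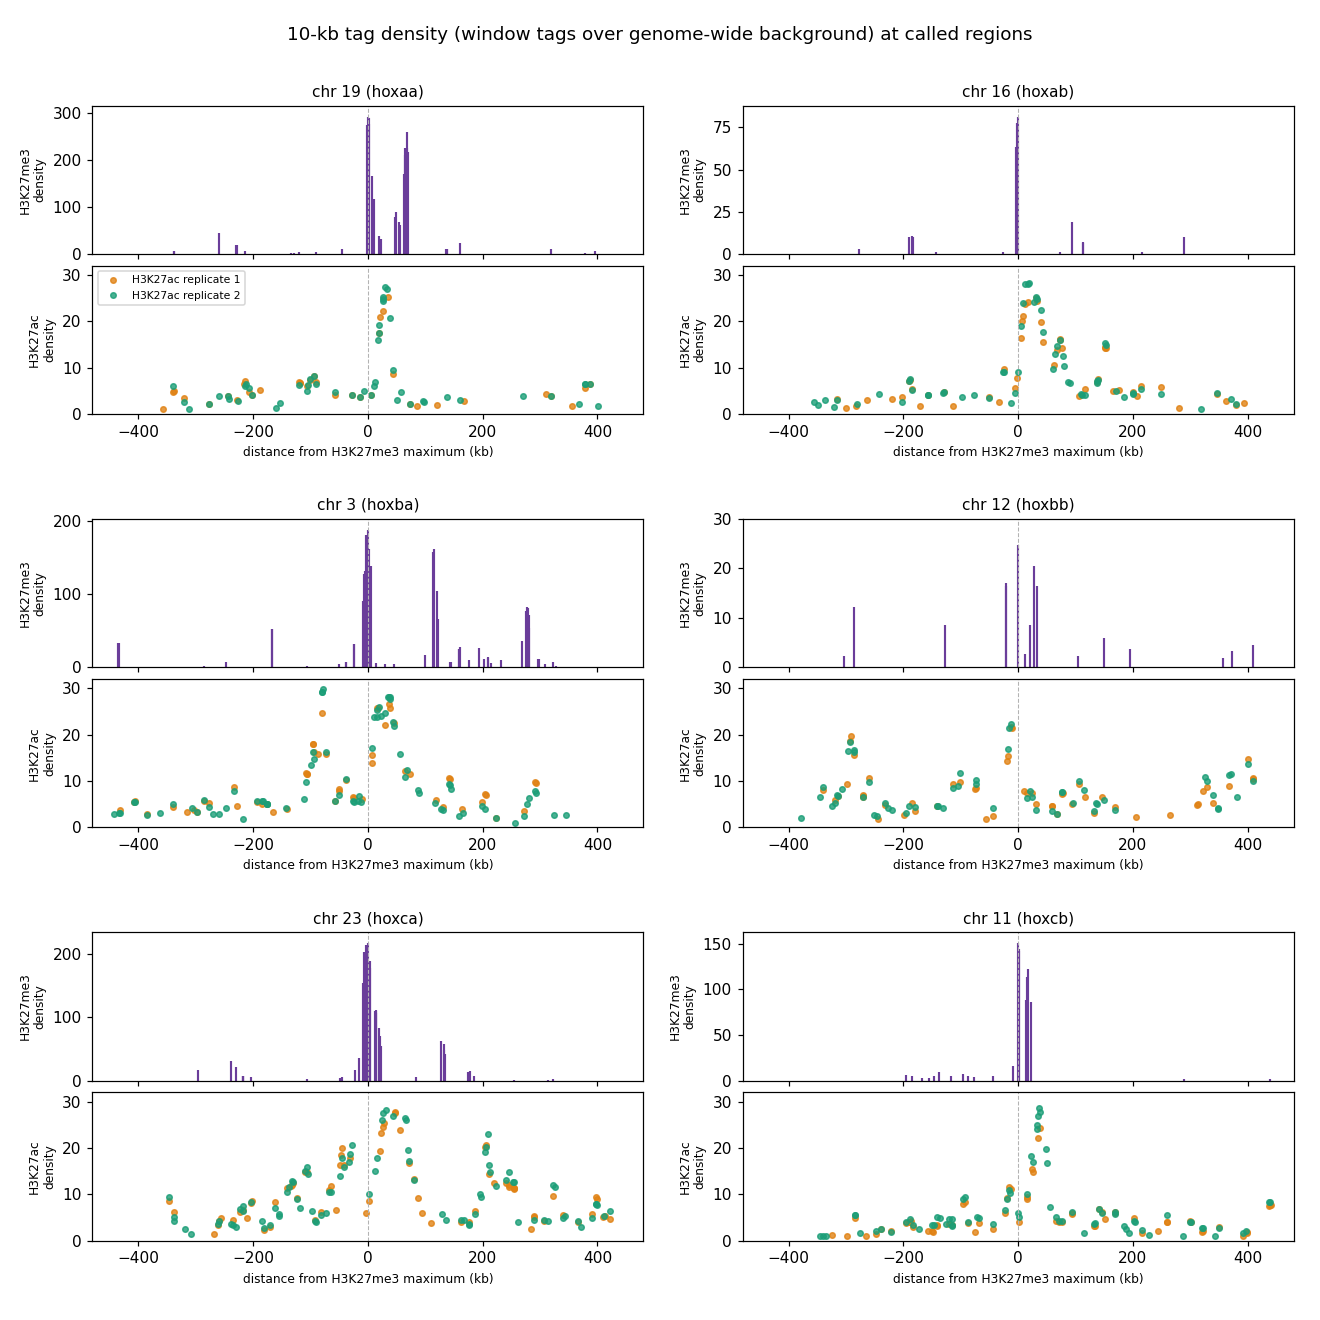
The 10-kb tag density of every called region is plotted against its distance in kb from the densest H3K27me3 region of the locus, with H3K27me3 as vertical lines above and the 2 H3K27ac replicates as points below. On hoxaa, hoxab, hoxca and hoxcb the highest H3K27ac points of both replicates lie right of the dashed line, on hoxbb left of it, and on hoxba on both sides.

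At hoxaa on chromosome 19, dense H3K27ac lay between 2 stretches of dense H3K27me3. H3K27me3 reached 292 (5407 tags, exact 95% Poisson interval 284 to 300) in the region from 19718206 to 19719653, the highest value of the 6 loci. Summits of at least 50 formed a first stretch of 6 regions from 19717477 to 19729872 and a second of 10 regions from 19766069 to 19788022, where the density reached 259. Between them, H3K27ac of at least 15 ran from 19737226 to 19753140 in replicate 1 and from 19736201 to 19757195 in replicate 2. Its maximum was 25.3 at 19753140 in replicate 1 and 27.5 at 19747989 in replicate 2. The 2 H3K27me3 regions called within that H3K27ac stretch had densities of at most 38.0. Nearest to the H3K27me3 maximum, at 4.84 kb to its right, an H3K27ac interval found in both replicates had a density of 4.22 in each, or 16.7 and 15.3% of the replicates' maxima. The domain with most H3K27me3, from 19781100 to 19788946, held 6 regions with 4252 bp and no H3K27ac found in both replicates, as did 84.7% of all domains of the list. It ranked 20 among the 12932 domains of the list (regions no more than 3 kb apart taken as one).

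The duplicate hoxab on chromosome 16 had a short H3K27me3 stretch at the edge of a long H3K27ac stretch. H3K27me3 reached 81.4 (1506 tags, exact 95% Poisson interval 77.3 to 85.6) in the region from 20895771 to 20897417. Only 3 regions, with summits from 20892146 to 20895894, had a density of at least 50. H3K27ac of at least 15 began 4.995 kb to the right of the maximum in replicate 1 and 4.75 kb in replicate 2 and ran to 20938796 and 20938839, 37.9 and 38.2 kb in length. The maxima were 25.1 at 20926542 and 28.3 at 20915300 in replicates 1 and 2, so their places lay 11.2 kb apart. The nearest H3K27ac interval of both replicates, 4.76 kb from the H3K27me3 maximum, already had densities of 16.4 and 19.1, or 65.4 and 67.4% of the maxima. To the left of the H3K27me3 stretch, H3K27ac within 200 kb reached only 9.63 and 9.12.

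At hoxba on chromosome 3, dense H3K27ac lay on both sides of the H3K27me3 maximum. H3K27me3 was called in 50 regions, more than at any of the other 5 loci, and reached 188 (3479 tags, exact 95% Poisson interval 182 to 194) in the region from 23654436 to 23654742. The domain around it, from 23646082 to 23659873, held 7 regions with 3769 bp and no H3K27ac found in both replicates. The same held for 84.7% of all domains of the list. Densities of at least 50 also occurred in stretches 168 kb to the left (up to 52.5), 114 to 122 kb to the right (up to 162) and 276 to 281 kb to the right (up to 83.1). H3K27ac of at least 15 formed a left stretch, from 23559031 to 23581394 in replicate 1 and from 23558994 to 23581367 in replicate 2. A right stretch ran from 23662020 to 23700363 in replicate 1 and from 23662315 to 23710645 in replicate 2. The left stretch reached 24.6 and 29.9 and the right stretch 26.7 and 28.2 in replicates 1 and 2. Replicate 1 was thus higher on the right and replicate 2 on the left, and the order of the 2 stretches was not settled. The nearest H3K27ac interval of both replicates, 7.43 kb right of the H3K27me3 maximum, had 15.6 and 17.2, or 58.3 and 57.4% of the maxima. Inside the right stretch 3 H3K27me3 regions overlapped H3K27ac, with H3K27me3 densities of 5.19, 4.86 and 4.16.

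The duplicate hoxbb on chromosome 12 had the least dense H3K27me3 of the 6 loci. It reached 24.8 (459 tags, exact 95% Poisson interval 22.6 to 27.2) in the region from 27136425 to 27136632, and no region reached 50. The median H3K27ac density was not the lowest here, with 6.97 and 6.60 in replicates 1 and 2 against 3.97 and 4.34 on hoxcb. The H3K27ac maxima were the lowest of the 6 loci, with 21.6 at 27124190 in replicate 1 and 22.3 at 27123744 in replicate 2. Both lay to the left of the H3K27me3 maximum, by 12.3 and 12.8 kb. A further H3K27ac stretch of at least 15 lay farther to the left, from 26844072 to 26850612 in replicate 1 and from 26840704 to 26851469 in replicate 2, and reached 19.8 and 18.5. The H3K27ac interval found in both replicates with the highest mean density was there, from 26843519 to 26844273, with 18.6 and 18.5. The regions that hold the replicates' own maxima did not overlap each other, and the nearest interval of both replicates lay 15.4 kb to the right of the H3K27me3 maximum, with 7.42 and 6.36.

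At hoxca on chromosome 23, dense H3K27ac lay on both sides of the H3K27me3 maximum, with the denser side on the right. H3K27me3 reached 217 (4009 tags, exact 95% Poisson interval 210 to 223) in the region from 36051185 to 36051384. A stretch of 13 regions of at least 50 ran from 36042268 to 36075032, and a shorter one from 36178403 to 36183167 reached 63.1. To the left, H3K27ac of at least 15 ran from 36003301 to 36020169 in replicate 1 and from 36005741 to 36023284 in replicate 2, with maxima of 20.1 and 20.7. To the right, the maxima were 27.7 at 36098837 in replicate 1, the highest of that list, and 28.3 at 36083694 in replicate 2. The nearest H3K27ac interval of both replicates, 1.41 kb right of the H3K27me3 maximum, had 8.61 and 10.03.

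The duplicate hoxcb on chromosome 11 had dense H3K27ac directly to the right of dense H3K27me3. H3K27me3 reached 151 (2788 tags, exact 95% Poisson interval 145 to 156) in the region from 2156045 to 2156982, and 7 regions of at least 50 had summits from 2156856 to 2179856. The first H3K27ac summit of at least 15 followed the last of these by 0.776 kb in replicate 1 and 0.263 kb in replicate 2. H3K27ac then ran to 2194926 in replicate 1 and to 2207384 in replicate 2, with maxima of 24.3 at 2194926 and 28.7 at 2192808. Within the H3K27me3 stretch the densest H3K27ac regions had 9.48 and 10.2. To its left, H3K27ac within 200 kb reached 11.6 and 10.96, at 15.4 and 15.3 kb from the H3K27me3 maximum. No H3K27me3 region of at least 10 was called more than 50 kb from that maximum, in contrast to hoxba with 24 such regions and hoxaa with 16.

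**Figure D2:**
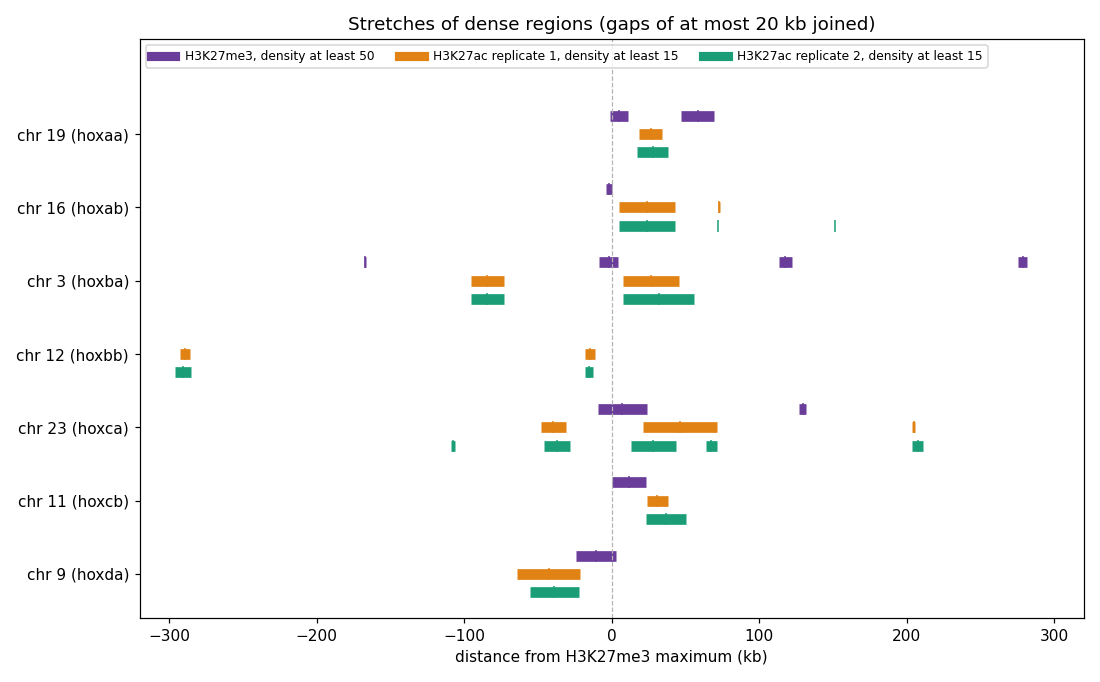
Bars span the summits of regions with a density of at least 50 in H3K27me3 or at least 15 in H3K27ac, with gaps of up to 20 kb bridged, against distance in kb from the H3K27me3 maximum of each locus. Where both marks have bars, the H3K27ac bars of both replicates begin at or beyond the ends of the H3K27me3 bars. Exceptions are hoxca, where they overlap the right end, and the hoxda locus of chromosome 9. On hoxbb no H3K27me3 region reached 50, so it has no H3K27me3 bar.

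Few of the densest H3K27ac regions lay within 1 kb of the densest H3K27me3 regions, although their share was above that of the whole lists. A density of at least 50 was reached by 59 of the 174 H3K27me3 regions, where the whole list had 13.7%. A density of at least 15 was reached by 52 of 331 H3K27ac regions in replicate 1, where the whole list had 0.927%. In replicate 2 it was reached by 77 of 412, where the whole list had 1.05%. Within 1 kb of a dense H3K27me3 region lay 3 of the 52 and 3 of the 77 dense H3K27ac regions. Both shares were larger than those of the whole lists, 1.18 and 0.949%. Of the 87 bins of 20 kb with H3K27me3 in the loci, 66 also held H3K27ac of both replicates and 6 held none of either replicate. Most bins held H3K27ac of both replicates in any case, 155 of all 240. The share over the genome was not worked out, so nothing is read from the bins. Inside a dense H3K27me3 stretch lay 2 dense H3K27ac regions of each replicate, all on hoxca in the right part of its main stretch. In replicate 1 these were the regions from 36072304 to 36072577 (H3K27ac 19.5) and from 36074715 to 36074914 (23.2). They overlapped H3K27me3 regions of 70.9 and 55.2. In replicate 2 they were the regions from 36064211 to 36064410 (15.1) and from 36067730 to 36068133 (17.8). The first of these overlapped an H3K27me3 region of 109, and the second lay 2173 bp from the nearest dense H3K27me3 summit. None of the 4 overlapped an H3K27ac region of the other replicate. Just past the last H3K27me3 summit of that stretch, replicate 2 had an H3K27ac region of 26.0, 23.9 kb right of the H3K27me3 maximum. Its summit lay in the H3K27me3 region of 55.2 that the second replicate 1 region overlapped. Both replicates thus had dense H3K27ac on that H3K27me3 region, at places that did not overlap. The cuts of 50, 15 and 20 kb were chosen after the values were seen.

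The H3K27ac maximum lay 12.3 to 77.9 kb from the H3K27me3 maximum over the 6 loci and both replicates. It was to the right in both replicates at 4 loci, by 31.8 ± 3.64 kb on hoxaa, 25.03 ± 7.95 kb on hoxab, 39.9 ± 10.7 kb on hoxca and 37.0 ± 1.498 kb on hoxcb (SD, n = 2 each). On hoxbb it was to the left by 12.3 and 12.8 kb. On hoxba it was 36.6 kb to the right in replicate 1 and 77.9 kb to the left in replicate 2, so no side can be given. The SD is the spread of 2 positions only, and the H3K27me3 position has no replicate. Both replicates of hoxab (30.6 and 19.4 kb) lay below those of hoxcb (38.1 and 36.0 kb) and hoxca (47.5 and 32.3 kb), and both of hoxaa (34.4 and 29.3 kb) lay below those of hoxcb. The other pairs of these 4 loci overlapped. The distances depend on the measure. With the maxima of both marks taken by deposited fold, the distance changed side on hoxaa, hoxbb and hoxca. It became 490 kb on hoxcb and 151 kb on hoxab. On hoxca the H3K27me3 region of highest fold ran from 36306398 to 36306597, with a density of 1.51. The H3K27ac regions of highest fold lay left of it, but still right of the densest H3K27me3 region. Between the 50-kb bins with most bp of each mark the distance was -85.0 kb on hoxaa, -185 kb on hoxbb, 10 kb on hoxcb and 230.0 kb on hoxca. From the densest H3K27me3 region to the densest H3K27ac interval of both replicates it was -293 kb on hoxbb.

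Which flank carried more H3K27ac depended on the measure. Flanks here run from 10 to 200 kb on each side of the H3K27me3 maximum. By density, the median over H3K27ac regions was higher on the right in both replicates at 5 loci. The log2 ratio of right over left was 1.57 ± 0.15 on hoxab, 0.88 ± 0.52 on hoxba, 0.63 ± 0.39 on hoxaa, 0.56 ± 0.16 on hoxcb and 0.47 ± 0.06 on hoxca, and it was -0.55 ± 0.02 on hoxbb (SD, n = 2 each). For hoxba the ratio became -1.58 when the flanks were set from the middle of all its H3K27me3 bp, so its side depends on the reference point. The highest single density per flank was higher on the left at hoxbb, by 2.28 and 2.21 times, and split between replicates at hoxba, where right over left was 1.084 and 0.945. It was higher on the right at hoxab by 2.61 and 3.10 times and at hoxaa (25.3 against 8.24 in replicate 1, 27.5 against 8.21 in replicate 2). On hoxcb these values were 24.3 against 11.6 and 28.7 against 10.96, and on hoxca 27.7 against 20.1 and 28.3 against 20.7.

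By bp under called regions, the right flank held 57.8 ± 4.15% of H3K27ac on hoxab (SD, n = 2), the only locus with more on the right in both replicates. The left flank held more in both replicates on hoxba, hoxca and hoxcb, where the right share was 38.8 ± 6.18%, 35.9 ± 1.75% and 46.6 ± 4.102% (SD, n = 2 each). The replicates fell on opposite sides of equal shares on hoxaa (40.6 and 51.0%) and on hoxbb (47.0 and 54.4%). On hoxcb the right share passed 50% with flanks of 100 kb (50.7%) or the whole window (51.9%), so its side is not stable. On hoxca the left flank had more bp, 9395 against 4979 in replicate 1 and 14421 against 8509 in replicate 2, at a lower density. The H3K27me3 bp were also unevenly placed, with 85.8% on the right flank of hoxaa, 79.3% on hoxca and 34.5% on hoxab.

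**Figure D3:**
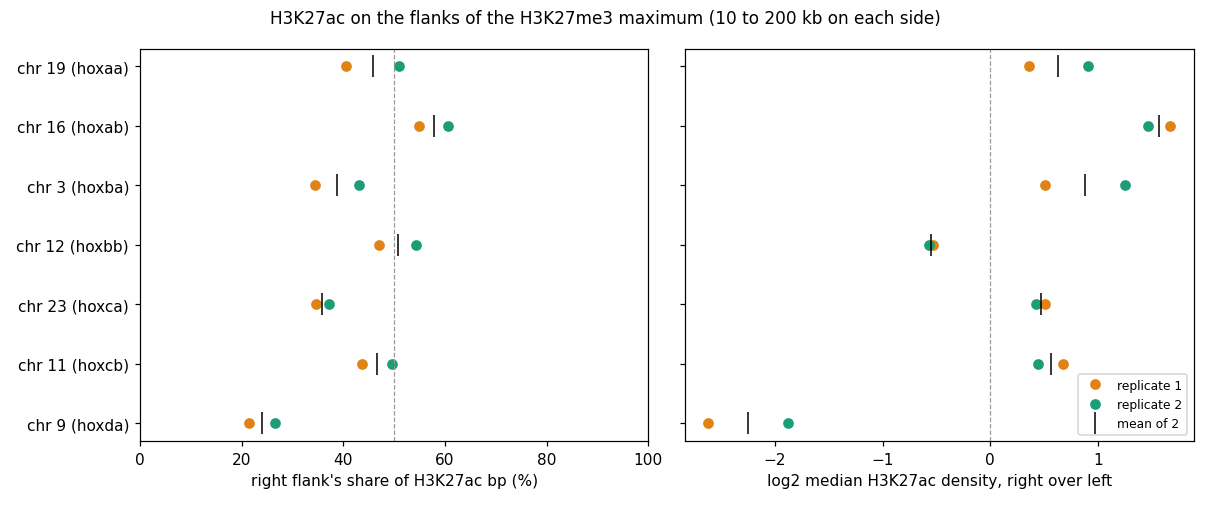
Left, the right flank's share of H3K27ac bp in percent. Right, the log2 ratio of the median H3K27ac density of the right over the left flank. Points are replicates, ticks are the mean of 2 and dashed lines mark equal flanks. By density all loci but hoxbb and hoxda (chromosome 9) are above 0, while by bp only hoxab has both points above 50%.

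Density is taken from the background, which with 1 added is the denominator of the deposited fold. The fold was lower where density was high, although the pileup (tags at the peak) was higher there. For H3K27me3 in the loci the median pileup was 63 at a density of at least 10 and 10 below it. The part of each in the fold was not tested. Within the loci, H3K27ac regions of a density of at least 10 had a median deposited fold of 2.60 in replicate 1 and 2.35 in replicate 2, against 3.597 and 3.44 in the other regions. For H3K27me3 the medians were 2.66 and 4.02. The whole lists had the same order, with 2.93 against 3.81 and 2.78 against 3.53 for H3K27ac and 2.96 against 4.27 for H3K27me3. The authors' highest fold of each locus and library belonged to a region outside the dense stretches of its own mark. In H3K27ac it was 5.50 to 8.06 in replicate 1 and 5.22 to 9.05 in replicate 2, at densities of 1.84 to 9.45 and 2.71 to 9.83. The fold of 9.05 belonged to the region from 36236878 to 36237452 on hoxca, which replicate 1 also gave as its highest of that locus (6.17). The highest fold of H3K27me3, 6.83, belonged to the region from 2040409 to 2041372 on hoxcb, at a density of 4.81. On hoxbb the H3K27me3 region of highest fold (6.64), from 26850378 to 26851159, lay in a dense H3K27ac stretch.

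Of the 174 H3K27me3 regions, 36 overlapped an H3K27ac interval found in both replicates (20.7%, exact 95% interval 14.9 to 27.5%), against 12% of the whole list. The loci ranged from 2 of 16 on hoxbb and 5 of 36 on hoxaa to 6 of 21 on hoxcb, with 10 of 50 on hoxba, 9 of 36 on hoxca and 4 of 15 on hoxab. Their exact 95% intervals overlapped, from 1.55 to 38.3% on hoxbb to 11.3 to 52.2% on hoxcb. Seen from the other mark, 43 of 331 H3K27ac regions of replicate 1 overlapped H3K27me3, against 6.48% of the list, and 61 of 412 of replicate 2, against 6.50%. Per Mb the loci held 69.0 (replicate 1) and 85.8 (replicate 2) regions of H3K27ac, and the part of this density in the overlap was not tested.

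Of the 36 shared regions, 27 had an H3K27me3 density under 10, or 75.0%, a share near the 75.3% of the whole list. At densities under 10, 27 of 69 regions overlapped H3K27ac (39.1%, exact 95% interval 27.6 to 51.6%), where the whole list had 14.4%. From 10 to 50 it was 7 of 46 (15.2%, exact 95% interval 6.34 to 28.9%, list 9.92%), and from 50 upwards 2 of 59 (3.39%, exact 95% interval 0.413 to 11.7%, list 4.35%). Both regions of at least 50 lay on hoxcb. The region from 2158510 to 2159632 had H3K27me3 of 142 and H3K27ac of 4.12 and 5.16, sharing 258 bp. The region from 2172148 to 2172960 had 114 and H3K27ac of 9.48 and 10.2. On the other loci the shared region densest in H3K27me3 had 32.1 on hoxba (23630461 to 23630863), 19.02 on hoxaa (19490936 to 19491387) and 14.9 on hoxca (36227616 to 36228783). It had 12.1 on hoxbb (26850378 to 26851159) and 10.6 on hoxab (20711362 to 20712071). Of these, the hoxbb region carried the densest H3K27ac, 15.7 and 16.7 in replicates 1 and 2, and the largest shared length, 637 bp.

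**Figure D4:**
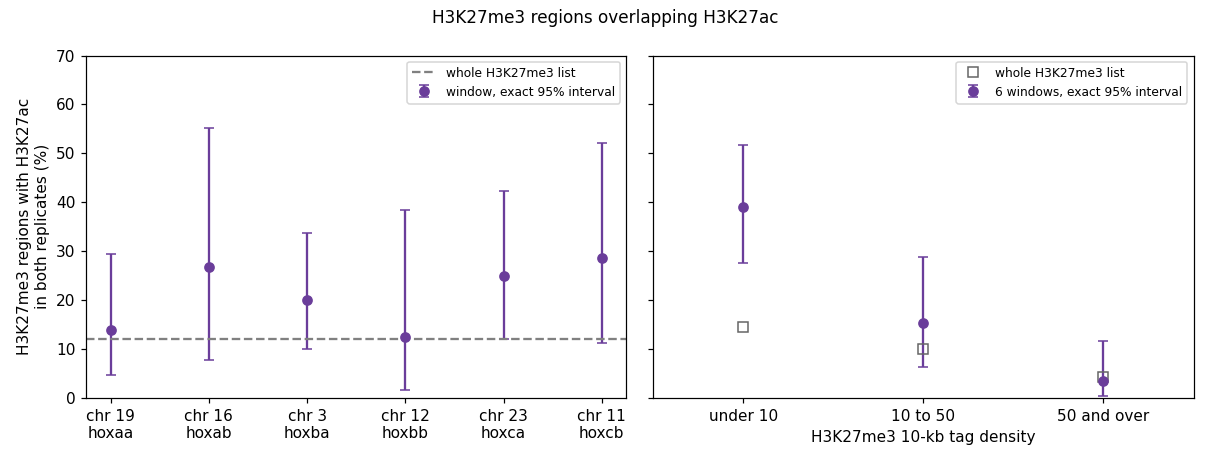
The share of H3K27me3 regions that overlap H3K27ac found in both replicates, in percent with exact 95% intervals, is plotted by locus (left) and by H3K27me3 density over all 6 loci (right). The dashed line and the squares give the whole H3K27me3 list, 12% overall. The share in the loci is 39.1% under a density of 10 and 3.39% from 50 upwards.

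Within each duplicated pair, the a copy carried more H3K27me3 than the b copy. hoxaa had 36 regions against 15 on hoxab, hoxba 50 against 16 on hoxbb, and hoxca 36 against 21 on hoxcb, and the bp under regions were 2.82, 3.90 and 1.90 times as many. The highest densities were 292 against 81.4, 188 against 24.8 and 217 against 151. These rest on 1 library, and the loci were chosen with such densities known. In both replicates H3K27ac followed this order by region count in 2 of the 3 pairs, with smaller ratios, by bp in 1 and by highest density in 1. The a copy had 0.740 and 0.864 times as many regions in replicates 1 and 2 on hoxaa, 1.04 and 1.3 times on hoxba, and 1.13 and 1.19 times on hoxca. By bp it had 0.707 and 0.949 times as much on hoxaa, 0.851 and 1.09 times on hoxba, and 1.20 and 1.25 times on hoxca. The highest H3K27ac densities of hoxaa and hoxab were 25.3 and 25.1 in replicate 1 and 27.5 and 28.3 in replicate 2, so the order turned between replicates. For hoxca and hoxcb they were 27.7 and 24.3 in replicate 1 and 28.3 and 28.7 in replicate 2, with the same turn. hoxba was above hoxbb in both replicates, by 1.24 and 1.34 times.

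**Figure D5:**
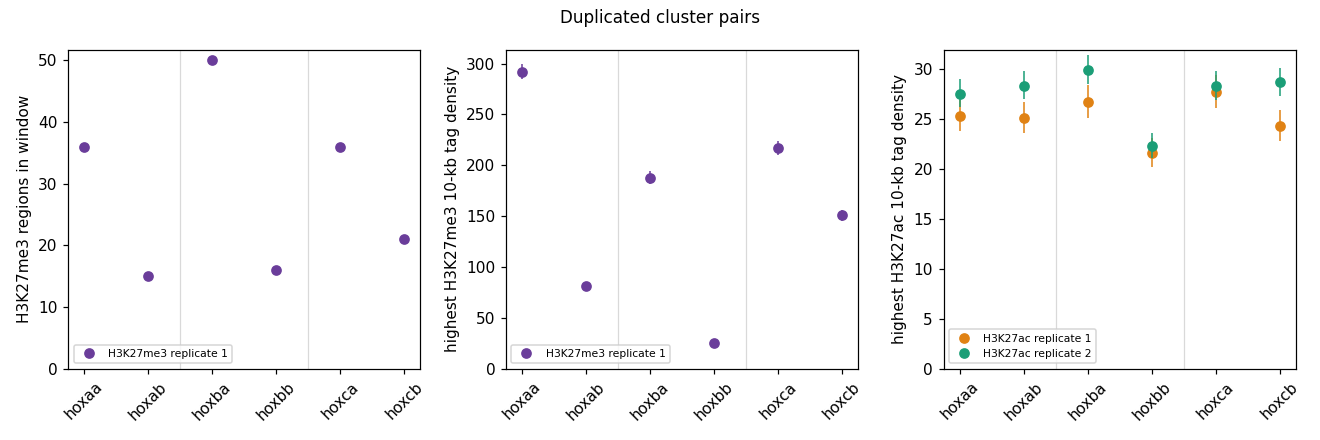
For each locus the number of H3K27me3 regions, the highest H3K27me3 density and the highest H3K27ac density of each replicate are plotted, with vertical lines as exact 95% Poisson intervals and the copies of a pair side by side. H3K27me3 is higher on each a copy, while the H3K27ac points lie between 21.6 and 29.9 on all 6 loci.

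The hoxda locus on chromosome 9, in a window of the same length, differed from hoxaa, hoxab, hoxca and hoxcb in the side of the H3K27ac maximum and of the higher median density. Its H3K27ac maximum lay to the left of the H3K27me3 maximum, by 42.5 ± 0.0841 kb (SD, n = 2), and the log2 ratio of the flank densities was -2.25 ± 0.53 (SD, n = 2). By bp its left flank also held more H3K27ac, with a right share of 21.5 and 26.7%, and in that it did not stand opposite to hoxca and hoxcb, which were left-heavy in both replicates, or to hoxaa, which was split. On hoxbb the maximum and the median density were on the left as on hoxda. The gene table has the highest-numbered gene of hoxbb at the lower-coordinate end, as on the other 5 loci, and that of hoxda at the higher end. The difference between hoxda and the other loci was not tested.

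H3K27ac of the loci was found in both replicates more often than in the lists. Of replicate 1 regions, 234 of 331 overlapped replicate 2 (70.7%, exact 95% interval 65.5 to 75.5%), where the list had 59.3%, and of replicate 2 regions 222 of 412 overlapped replicate 1 (53.9%, exact 95% interval 48.9 to 58.8%), where it had 43.0%. At the 238 intervals found in both, replicate 2 over replicate 1 gave a median log2 density ratio of 0.01 (SD 0.22 over intervals). By locus the median ran from -0.13 on hoxba to 0.15 on hoxcb, the lowest and highest of the 6.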

How the data were processed

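CUT&RUN of zebrafish trunk at 16 hours gave 1 H3K27me3 and 2 H3K27ac libraries, grouped by sample title. Control libraries were not used here. Per the submitters' processing notes, the tools were MACS2 2.2.7.1, bedtools 2.30.0, Picard 3.0.0, SAMtools 1.16.1, Bowtie2 2.4.5 and cutadapt 4.1, with build danRer11. Their roles, settings and order are not given. The authors deposited 1 peak list per library, with a fold (a ratio over local background), a -log10 p-value, a -log10 q-value and a score (10 times the -log10 q, without decimals, in nearly all lines). Several summits of 1 interval stand on separate lines, so 302, 423 and 623 lines gave the regions of H3K27me3 and of H3K27ac replicates 1 and 2. The mitochondrial genome was left out.

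In MACS2 the fold is 1 + pileup over 1 + background, and p is a Poisson tail, so the pair was solved for pileup and background. Every line had a solution within 0.001. Backgrounds above the genome-wide value were multiples of 0.02 to within 0.091 of a step, read as tags of 200 bp in a 10-kb window. In 369 lines of H3K27me3, 102 of H3K27ac replicate 1 and 3 of replicate 2 several solutions existed, of which the closest was kept. The code was tested on simulated data.

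A region keeps its highest density and that summit. Positions are 1-based. Overlap is at least 1 bp. Shares have Clopper-Pearson intervals, and tags have exact Poisson intervals. Regions were picked by rule per locus. These were the densest and highest-fold region of each library and the H3K27me3 domain with most bp. Further ones were the shared region densest in H3K27me3, the shared H3K27ac interval nearest to the H3K27me3 maximum and the H3K27ac maximum of each flank. Not all of them are printed for every locus, and highest-fold regions and domains only for some. Loci, lists and measures were chosen with earlier results of these data known, and the flank densities and stretches after their values were seen. No test across samples was run, since the antibodies are on different scales and H3K27me3 has no replicate. Sequences were not printed, as no danRer11 genome was used here. Other settings tried were -log10 q from 5 upwards, other flanks, reference points and overlaps, and single replicates. The software was matplotlib 3.10.9, scipy 1.17.1, pandas 2.3.3, numpy 2.4.6 and Python 3.11.15.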

Additional observations from a re-analysis of the deposited data

How the results depend on the processing

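No paired analysis was possible because H3K27me3 has 1 library and the antibodies share only replicate number 1. Where a value moved, the cause was not tested. At -log10 q of at least 5 the loci held 80 H3K27me3 regions and 130 and 185 H3K27ac regions of replicates 1 and 2, and their central 400 kb held 200 and 257. With the maxima of both marks taken by deposited fold, the mean distance was 490 kb on hoxcb and 151 kb on hoxab. It had the opposite sign on hoxbb (209 kb), hoxaa (-490 kb) and hoxca (-69.4 kb). Between the 50-kb bins with most bp of each mark it was 10 kb on hoxcb, -185 kb on hoxbb, 230.0 kb on hoxca and, reversed, -85.0 kb on hoxaa. By the interval found in both replicates it was -293 kb on hoxbb and 27.05 kb on hoxca.

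Of the alternatives for the right share of H3K27ac bp, 42 stayed within the replicate spread, 16 moved and 2 changed side. A change of side was counted only where both replicates lay on the same side, so hoxaa and hoxbb could not count. Besides single replicates, hoxaa (mean 45.8%) crossed 50% with regions counted once each (54.2%) and flanks of 100 kb (63.7%). From its mean of 50.7%, hoxbb crossed over the whole window (42.6%), from the middle of the H3K27me3 bp (48.5%) and with 30 kb left out (49.97%). The 42 include the single-replicate settings of every locus. A single replicate always lies closer to the mean of the pair than their SD. These settings could therefore not move, and nothing about stability is read from them. With regions counted once each the right share was 46.0% on hoxba, 67.1% on hoxab, 54.2% on hoxaa and 42.3% on hoxca. At -log10 q of at least 5 it was 29.8% on hoxba and 13.3% on hoxca, and over bp of both replicates 31.8% on hoxba, 21.1% on hoxaa and 21.8% on hoxca. With flanks of 100 kb it was 61.4% on hoxbb, 63.7% on hoxaa, 40.9% on hoxca and, reversed, 50.7% on hoxcb. Over the whole window it was 42.6% on hoxbb, 47.8% on hoxca and, reversed, 51.9% on hoxcb. With 30 kb left out it was 64.8% on hoxab and 31.2% on hoxca.

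The log2 flank density ratio with flanks of 100 kb was 0.74 on hoxcb, -1.13 on hoxbb, 2.13 on hoxab, 1.90 on hoxaa and 1.01 on hoxca. At -log10 q of at least 5 it was -0.45 on hoxbb, 1.36 on hoxab and 1.53 on hoxaa. From the middle of the H3K27me3 bp it was -0.75 on hoxbb, 0.14 on hoxaa and, reversed, -1.58 on hoxba. The 36 regions with both marks became 12 with 50% reciprocal overlap and 4 at -log10 q of at least 5, and without H3K27ac replicate 1 or 2 they were 61 and 43. The whole list moved the same way, from 12% to 4.37, 3.64, 22.9 and 17.3%, against 6.90, 5.0, 35.1 and 24.7% in the loci. The shallow H3K27me3 library and the call threshold limit what can be seen, and places without a called region have no density.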

Other observations

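Further H3K27ac of high density lay far from the H3K27me3 maximum at 3 of the 6 loci. More than 100 kb away, intervals found in both replicates with a density of at least 10 in each numbered 14 on hoxca, 5 on hoxbb and 3 on hoxab, and none on hoxaa, hoxba or hoxcb. On hoxca 9 of the 14 lay to the right. The densest, from 36257003 to 36257651, was 206 kb to the right with 20.4 ± 0.327 (SD, n = 2). This was close to the 20.1 and 20.7 of the dense H3K27ac stretch left of the H3K27me3 maximum. On hoxbb the densest had 18.6 ± 0.0704 (SD, n = 2), 293 kb to the left, and on hoxab, from 21047494 to 21047693, 14.9 ± 0.512 (SD, n = 2), 152 kb to the right. None of these 3 had an H3K27me3 region within 5 kb, as was the case for 75.4% of all such intervals of the list.

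H3K27me3 of at least 10 more than 50 kb from the maximum was densest on hoxaa (259, 67.3 kb to the right) and hoxba (162, 116 kb to the right, in a region of 2059 bp from 23768595 to 23770653). On hoxca it reached 63.1, 127 kb to the right. No H3K27ac interval of both replicates lay within 5 kb of the hoxaa and hoxca regions. The hoxba region had 1, with 5.88 and 5.36 in replicates 1 and 2.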
